A study of Mus musculus with 367 samples.

Results

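The 6 long noncoding RNA genes Malat1, Neat1, Gas5, Snhg1, Snhg3 and Snhg12 were followed in single cells from healing mouse skin. They were chosen by name, as 6 of the 50600 gene identifiers in the deposited tables, and all 6 were found. The cells came from Sm22-Cre;tdTomato mice of mixed background, 3 to 8 weeks old per the labels, with square excisional wounds of 1.5 cm a side on the back. In these mice Cre is driven by the promoter of Tagln (also called Sm22), so tdTomato marks cells that expressed this contractile gene at any time, and only viable cells high in tdTomato were sorted and captured one by one in a microfluidic device. Wound dermis was collected on post-wounding days 12, 15 and 21, in 3, 2 and 2 captures, and the 7 captures held 367 cells. All mice carried both alleles, all were wounded, and no unwounded or untreated group was analysed here. The labels give 2 to 3 tissues per time point, and do not say whether captures of 1 day came from different mice, so p-values over captures measure only the spread between captures, which may be technical.

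After cells with few fragments, very many genes or a high mitochondrial share were set aside, 292 cells were kept. Matrix cells (Col1a1 of at least 1000 FPKM, Rgs5 below 100 and Tyrobp below 50) numbered 198, mural cells (Rgs5 of at least 500, Tyrobp below 50) 57 and myeloid cells (Tyrobp of at least 500) 26, and 11 cells fell in none of these classes. FPKM are fragments scaled to the length of the transcript and to the mapped fragments of the cell. All 9 matrix fibroblast markers had a mean of at least 1 FPKM in matrix cells, all 8 mural markers did so in mural cells, and all 10 myeloid markers did so in myeloid cells. The limits are not exclusive, since the summed matrix fibroblast markers still reached 2226 to 20180 FPKM in the mural cells of a capture and 17.6 to 15880 FPKM in the myeloid cells, against 22806 to 42978 FPKM in matrix cells. The estimated depth was 943000 to 2342000 fragments per cell as the median of a capture, lowest in both day 15 captures.

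Long noncoding RNAs act as RNA and are not translated into a known protein. Malat1 stays in the nucleus, where it gathers at nuclear speckles, the bodies that store splicing factors. Neat1 is the scaffold of paraspeckles, nuclear bodies built from its long isoform and proteins such as Nono and Sfpq, and it is inducible by cell stress. Gas5, Snhg1, Snhg3 and Snhg12 are host genes: their introns are cut into small nucleolar RNAs (snoRNAs), which guide the modification of ribosomal and other RNAs, while many of the spliced host transcripts are short-lived and are removed by nonsense-mediated decay. Several host genes belong to the same class as ribosomal protein genes, whose transcripts start with a cytosine followed by a tract of pyrimidines.

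The sequences below show a feature of each locus that bears on how its values can be read. On GRCm38 (the same assembly as mm10, which the labels name), Malat1 (ENSMUSG00000092341) lies on chromosome 19 from 5795690 to 5802672, on the minus strand, and its longest transcript is a single exon of 6983 bases. The gene Gm37376 (an unverified transcript model, type TEC in GENCODE) lies on the plus strand from 5801941 to 5802393, wholly inside Malat1. All 453 bases of the Gm37376 transcript were the exact reverse complement of Malat1 bases 280 to 732, counted from the Malat1 5′ end. The first 60 bases of this stretch, chr19:5802334-5802393, are printed for both strands:
Malat1, sense: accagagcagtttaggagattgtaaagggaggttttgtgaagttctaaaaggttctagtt
Gm37376, antisense: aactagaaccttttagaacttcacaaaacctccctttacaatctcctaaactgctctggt

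The starts of the host transcripts are shown because ribosomal protein genes, which share this type of start, were among the genes whose pattern was like that of Gas5. Each line gives the first 30 bases of 1 annotated transcript, picked as a start with such a run that the most transcripts of the gene share (for Snhg1, which has none, the start with the longest run among the most shared), with the opening cytosine and the pyrimidines that follow it without a break in capitals:
Gas5 transcript start, chr1:161035166-161035195, plus strand: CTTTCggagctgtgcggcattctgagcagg
Snhg1 transcript start, chr19:8723487-8723516, plus strand: CTCatttttccttgttcggggtaagtactc
Snhg3 transcript start, chr4:132353604-132353633, minus strand: CTCTCTaggcgtcgctctcttggtgtgctt
Snhg12 transcript start, chr4:132308676-132308705, plus strand: CCTTTCTCgcttcatccgcggtccctgtct

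An opening run of a cytosine and further pyrimidines, at least 5 bases in all and read on the transcript strand only, began 5 of 25 annotated transcripts of Gas5. It also began 3 of 10 transcripts of Snhg12 and 1 of 5 of Snhg3. None of the 18 transcripts of Snhg1 had it, where the longest run was 3 bases. Malat1 and Neat1 had it in 0 of 4 transcripts each. Over all 141767 transcripts of the annotation the share was 2.02%, and 35 of 80 cytosolic ribosomal protein genes had at least 1 such transcript against 4.54% of all genes. An annotated start need not be the start used in these cells.

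The loci of the hosts contain the snoRNAs on the same strand. Gas5 (ENSMUSG00000053332, chromosome 1, 161034422 to 161038539, plus strand) held 10 annotated snoRNA genes, Snhg1 (ENSMUSG00000108414, chromosome 19, 8723475 to 8726443, plus strand) 8, Snhg12 (ENSMUSG00000086290, chromosome 4, 132308623 to 132311024, plus strand) 5 and Snhg3 (ENSMUSG00000085241, chromosome 4, 132348014 to 132353686, minus strand) 2. None of the 10 in Gas5, which were 60 to 84 bases long, had a value above 0 in any kept cell. In Snhg1 only Snord22 was above 0, in 7 of 292 cells. In Snhg12 it was Snora61, in 2 cells, and in Snhg3 both Snora73b, in 9 cells, and Snora73a, in 2. The snoRNAs with a value were 126 to 205 bases long, and the longest without one had 137 bases. The values below are those of the host genes, and the levels of their snoRNAs could not be read from these libraries. A short snoRNA without and a longer one with values are shown, with the letters TGATGA (the usual C box) and the last CTGA (the D box) in capitals where they occur:
Snord47 in Gas5, chr1:161038082-161038158: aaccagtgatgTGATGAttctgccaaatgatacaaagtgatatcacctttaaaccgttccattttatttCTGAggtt
Snord22 in Snhg1, chr19:8725866-8725991: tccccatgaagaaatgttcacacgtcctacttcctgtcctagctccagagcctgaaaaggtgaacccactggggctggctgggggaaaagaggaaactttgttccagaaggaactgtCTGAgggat

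In matrix cells Malat1 was by far the most abundant of the 6 RNAs. Per length, Malat1 had a mean level of 13558 ± 1952 FPKM (SD over captures, n = 7), Gas5 569 ± 88.6, Neat1 118 ± 48.3, Snhg1 48.96 ± 19.6, Snhg3 32.1 ± 25.4 and Snhg12 13.3 ± 5.61. Malat1 ranked 4th of 25429 genes with a value, Gas5 ranked 194 and Snhg12 ranked 5294. Malat1 exceeded Gas5, and Gas5 exceeded Neat1, in 7 of 7 captures, each with an exact sign-flip permutation p = 0.0156, the smallest that 7 captures can give, and a Benjamini-Hochberg adjusted p = 0.039 over 5 neighbouring pairs. The lower neighbours did not differ beyond their spread after adjustment: Neat1 was above Snhg1 in 6 of 7 captures (adjusted p = 0.052, exact permutation test), Snhg1 above Snhg3 in 6 of 7 (0.0586) and Snhg3 above Snhg12 in 6 of 7 (0.0625), all tests two-sided. The order, and so the pairs tested, was taken from the same 7 captures, which these p-values do not allow for. Lengths bear on the order, since the annotated transcripts of Neat1 ranged from 711 to 20771 bases and the deposited tables hold 1 value per gene.

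**Figure D1:**
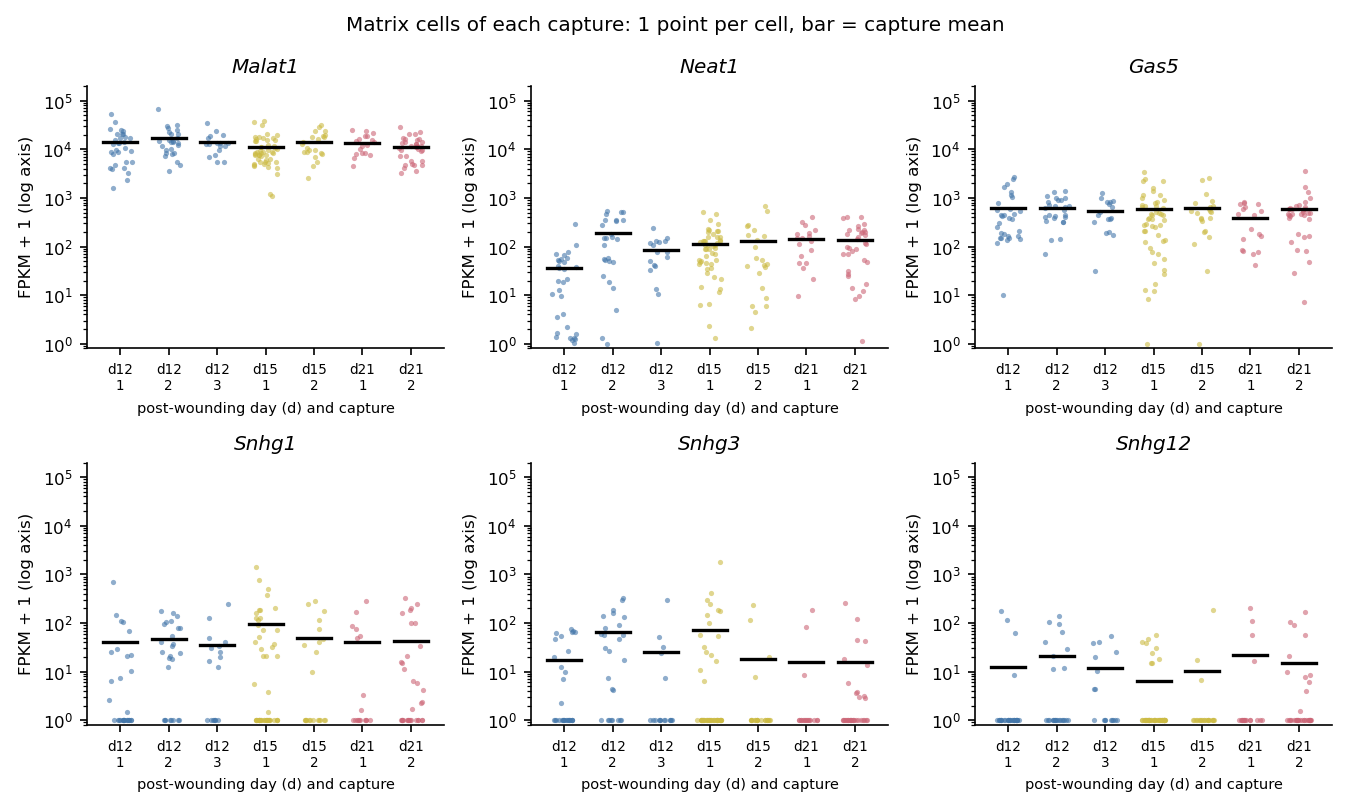
Level of each RNA in single matrix cells, as FPKM + 1 on a log axis, by post-wounding day and capture; each point is a cell and each bar the mean of a capture. Malat1 stands above 1000 FPKM in every cell, Neat1 is lowest in day 12 capture 1 (mean 35.6 FPKM), and Snhg1, Snhg3 and Snhg12 are at 0 in many cells of every capture.

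Malat1 was above 0 in all 292 kept cells. Its mean level in matrix cells was 14135, 16799 and 14079 FPKM in the day 12 captures, 10961 and 14017 FPKM at day 15, and 13546 and 11369 FPKM at day 21. Day 12 capture 2 was the highest and day 15 capture 1 the lowest, and all 4 later captures lay below the 3 of day 12, while days 15 and 21 overlapped. As a share of the summed FPKM of a matrix cell, Malat1 made up 1.89%, 2.17% and 1.83% in the day 12 captures, 1.44% and 1.885% at day 15, and 2.03% and 1.45% at day 21, so the days overlapped on this scale. Single cells ranged from 1100 to 66365 FPKM, and the coefficient of variation between cells of a capture had a median of 0.564, higher than in all 8 other genes with a mean within 2-fold of Malat1. The fitted difference in log2 level was -0.27 ± 0.18 (SE) for day 15 minus day 12 and -0.27 ± 0.18 for day 21 minus day 12, with 95% intervals of -0.68 to 0.14 in both.

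Gm37376, the antisense gene printed above, was listed above 0 in all 292 kept cells with a mean of 13059 FPKM, and ranked 5th in matrix cells. Within each capture its level followed that of Malat1 from cell to cell, with a correlation of log2 levels of 0.729 to 0.925. The libraries did not keep strand, so reads from this stretch of 453 bases cannot be told apart between the 2 genes, and the level of Malat1 depends on how the counting divided them. The median ratio of Gm37376 to Malat1 in a capture ran from 0.611 to 1.33. It was highest in day 15 capture 1, at 1.33, and next in day 21 capture 2, at 1.03, which were the 2 captures with the lowest Malat1, while in the other 5 it was 0.611 to 0.723. The part of this division in the differences of Malat1 between captures was not tested.

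Neat1 (ENSMUSG00000092274, chromosome 19, 5824708 to 5845478, minus strand) was above 0 in 99.5% of matrix cells. The mean level was 35.6, 187 and 81.8 FPKM in the day 12 captures, 114 and 130 FPKM at day 15, and 143 and 136 FPKM at day 21. The captures of day 12 alone covered a 5.26-fold range that enclosed both later days. The fitted difference was 0.57 ± 0.60 for day 15 minus day 12 and 0.76 ± 0.60 for day 21 minus day 12, on the log2 scale. Without day 12 capture 1 these became -0.02 and 0.17, and without day 12 capture 2 they became 1.16 and 1.35. The direction of the first thus depended on day 12 capture 1, and the size of both on either capture. In day 12 capture 1 the median cell had 18.1 FPKM, whereas the capture medians elsewhere were 46.8 to 144 FPKM.

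Neat1 was more even from cell to cell than most genes with a mean level within 2-fold of it. Its coefficient of variation (0.956, the median over captures) was undercut by 116 of 1220 such genes. Their median was 1.42, and the median gene of them was above 0 in 77.8% of matrix cells. These genes were matched on FPKM, which is scaled to length, and not on fragments. The median annotated transcript of Neat1 has 2017 bases, and the part of length and counting error in its evenness was not tested.

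Gas5 was the most abundant of the host RNAs and was above 0 in 99.0% of matrix cells. Its mean level was 632, 620 and 540 FPKM in the day 12 captures, 594 and 630 FPKM at day 15, and 382 and 584 FPKM at day 21. Day 21 capture 1 stood lowest, and the other day 21 capture lay within the range of day 12. The fitted difference was 0.04 ± 0.30 for day 15 minus day 12 and -0.34 ± 0.30 for day 21 minus day 12, and the latter was -0.03 without day 21 capture 1 and -0.64 without day 21 capture 2. Between cells the coefficient of variation was 1.03, above that of 273 of the 345 genes of like level. A single matrix cell held between 0 and 3617 FPKM.

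Snhg1, Snhg3 and Snhg12 were sparse. The share of matrix cells with a value above 0 was 52.02% for Snhg1, 35.9% for Snhg3 and 24.2% for Snhg12, while the median gene of like level was above 0 in 59.1%, 48.99% and 32.8% of cells. A cell without a value need not lack the RNA: 3 fragments of a transcript of the gene's median length correspond to 4.30 to 10.2 FPKM for Snhg1, 9.47 to 22.4 FPKM for Snhg3 and 2.12 to 5.01 FPKM for Snhg12 at the median depths of the captures. Lower values were listed too and count as above 0, down to 0.49 FPKM for Snhg1, 1.22 FPKM for Snhg3 and 0.53 FPKM for Snhg12. The levels for 3 fragments and the intervals on shares cover counting error only.

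Snhg1 had mean levels of 39.5, 46.7 and 35.1 FPKM in the day 12 captures, 92.3 and 47.6 FPKM at day 15, and 39.7 and 41.9 FPKM at day 21. Day 15 capture 1 stood apart, in part through 1 cell at 1411 FPKM, and without that cell its mean was 65.4 FPKM. Snhg3 had mean levels of 16.2, 65.8 and 23.9 FPKM at day 12, 71.9 and 16.8 FPKM at day 15, and 15.1 and 15.0 FPKM at day 21. A single cell at 1828 FPKM carried the highest of these means, which was 36.1 FPKM without it. Snhg12 had mean levels of 11.6, 19.7 and 11.2 FPKM at day 12, 5.53 and 9.49 FPKM at day 15, and 21.3 and 13.9 FPKM at day 21. Both day 15 captures were below the other 5, and they were also the shallowest captures. The fitted differences of these 3 genes between days lay between -1.17 and 1.14 on the log2 scale, with standard errors of 0.50 to 0.85.

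None of the 6 RNAs passed the test between days. The question was whether their level in matrix cells changed from day 12 to day 21 of healing, and limma was fitted on log2(mean FPKM + 1) of the 7 captures over the 13552 genes that reached 1 FPKM on average, with Benjamini-Hochberg adjustment over all of them. The number of members called was 0 of 6 for day 15 against day 12, where 0% of all genes were called, 0 of 6 for day 21 against day 12, where 0.00738% were called, and 0 of 6 for day 21 against day 15, where 0% were called. The adjusted p of a member was 0.787 or more in all 3 comparisons. At an unadjusted p under 0.05 limma gave 791, 968 and 745 genes, and no member was among them. The 1 gene called between days 12 and 21 was Gm2564, named after its values were seen. The 95% intervals did not exclude changes of moderate size: for day 21 minus day 12 they reached 2.10 for Neat1, -2.65 for Snhg3 and 1.82 for Snhg12 on the log2 scale, and only for Malat1 were they within 0.68 of 0. The median gene differed by -0.10, -0.19 and -0.05 in the 3 comparisons.

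**Figure D2:**
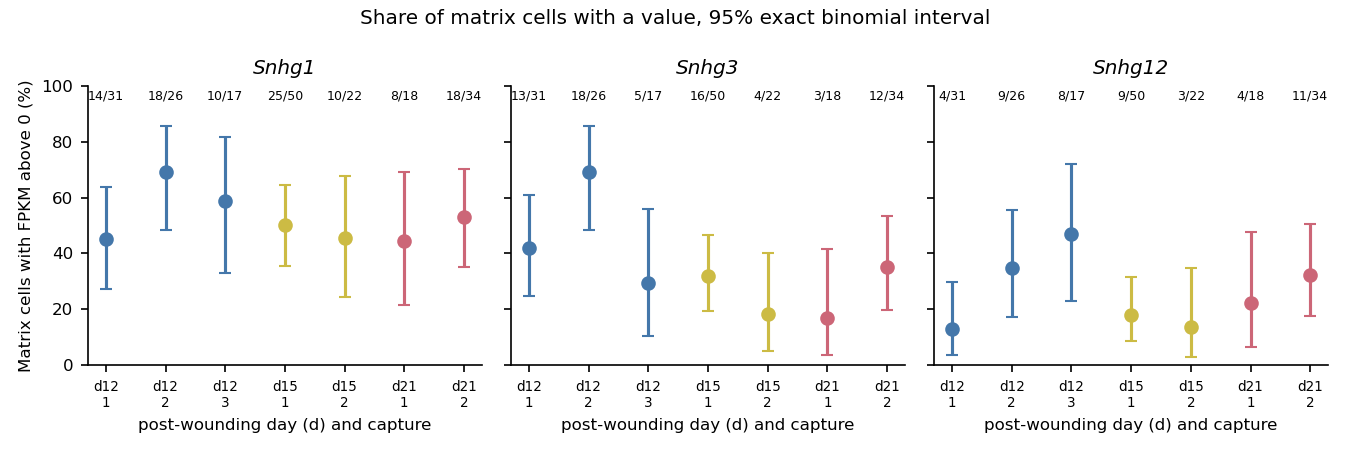
Share of matrix cells with a value above 0 for Snhg1, Snhg3 and Snhg12, in percent, by post-wounding day and capture; bars are exact 95% binomial intervals and the counts above are cells with a value of all matrix cells. Day 12 capture 2 is highest for Snhg1 and Snhg3 (18 of 26 cells for both), and all intervals overlap for Snhg1, while for Snhg3 that of day 12 capture 2 (48.2% to 85.7%) lies above those of both day 15 captures and day 21 capture 1.

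The share of cells with a value was compared between days as well. Snhg1 was above 0 in 45.2%, 69.2% and 58.8% of matrix cells in the day 12 captures, 50% and 45.5% at day 15, and 44.4% and 52.9% at day 21. Snhg3 was above 0 in 41.9%, 69.2% and 29.4% at day 12, 32% and 18.2% at day 15, and 16.7% and 35.3% at day 21. Snhg12 was above 0 in 12.9%, 34.6% and 47.1% at day 12, 18% and 13.6% at day 15, and 22.2% and 32.4% at day 21. The mean share at day 12 was the highest for all of these 3 genes, and captures of day 12 differed among themselves as much as the days did. The exact permutation test over the 210 assignments of captures to days gave p = 0.467 for Snhg1, 0.371 for Snhg3 and 0.448 for Snhg12, and 0.0952 for Gas5, which was missing from 1 cell in each day 15 capture only. The smallest p that this two-sided test can give is 0.00952, and 7.8% of all 13552 genes had p under 0.05 in it. Malat1 and Neat1 (p = 1 for both, exact permutation test) were above 0 in nearly every cell of every capture.

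The shares were also compared by depth. In the deeper cells of each capture, Snhg1 was above 0 in 57% of 100 matrix cells and Snhg3 in 42%, against 46.9% and 29.6% of the 98 shallower cells. The deeper cells had the higher share in 3 of 7 captures for Snhg1 and in 4 of 7 for Snhg3. Snhg12 went the other way, with 21% in the deeper and 27.6% in the shallower cells, and was higher in the deeper cells of 1 of 7 captures. The part of depth in the differences between captures was not tested.

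The 3 sparse hosts were seen together in few cells. Of 198 matrix cells, 55 had none of Snhg1, Snhg3 and Snhg12, 77 had 1, 53 had 2 and 13 had all 3. Multiplying the 3 shares within each capture gives 48.7, 87.0, 51.7 and 10.5 cells for these classes. Across matrix cells, centred on the mean of each capture, the log2 levels of the 6 RNAs were only weakly related to each other: Malat1 and Neat1 had the highest Pearson correlation, at 0.191, and the 6 pairs among the hosts ran from -0.0205 to 0.122. The cells share libraries, depth and a common total, so these are descriptions without a test.

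The genes most like each RNA across the 198 matrix cells, among up to 4543 genes above 0 in at least 50% of these cells, were of different kinds for Malat1, Neat1 and Gas5. For Malat1 they were Gm37376 (0.849), mt-Rnr2 (0.503), the pseudogene Gm28437 (0.450), mt-Nd1 (0.438) and mt-Co1 (0.413), that is, its own antisense gene and transcripts of mitochondrial type. The mitochondrial share of a cell itself had a correlation of 0.450 with Malat1, from -0.0998 to 0.602 in the single captures. The 14 mitochondrially encoded genes had a median correlation of 0.361 with Malat1 and the 79 cytosolic ribosomal protein genes one of -0.188, beside -0.0127 over all genes. Values of a cell share 1 total, so a rise of one abundant class lowers the others.

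For Neat1 the genes most like it were Fosb (0.464), Jun (0.393), the lncRNA Rian (0.361), Zfp36 (0.350) and Ttc28 (0.346). Fosb and Jun code for subunits of the AP-1 transcription factor and Zfp36 for a protein that speeds the decay of unstable mRNAs, and all 3 are immediate early genes, which respond within a short time to stimuli such as tissue dissociation. Fosb and Neat1 were positively correlated in 7 of 7 captures, from 0.266 to 0.584. The 7 immediate early genes that could be measured had a median correlation of 0.295 with Neat1, beside 0.0371 over all genes. Among the 50 genes most like Neat1, of 4542 compared, 6 were from this list. The list was drawn up after these values were seen and holds Fosb, Jun and Zfp36, named above. Both its median and its count were thus partly set by that choice. The mean level of Fosb in matrix cells was 15.8 FPKM in day 12 capture 1, where Neat1 was lowest, and 47.7 to 205 FPKM in the other captures, so both genes were lowest in the same capture. Jun was at 62.5 FPKM there, and lower still in day 21 capture 1, at 51.7 FPKM, where Neat1 was at 143 FPKM. All tissues were dissociated with collagenase per the labels, and the part of this step in the levels of Neat1 was not tested.

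For Gas5 the genes like it included Rps18 (0.359) and Rpsa (0.316), which code for ribosomal proteins, and Gm14303 (0.288). Of the 50 genes most like Gas5, 18 were among the 79 cytosolic ribosomal protein genes. This list was also drawn up afterwards and holds Rps18 and Rpsa. The median correlation of the 79 genes with Gas5 was 0.136, beside 0.0243 over all genes. The relation was uneven between captures, since that with Rps18 ran from -0.233 to 0.595. For Snhg1, Snhg3 and Snhg12 the highest correlation with any gene was 0.257 (Kpnb1), 0.253 (Nptn) and 0.248 (Csf1), too weak in such sparse values to be read.

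**Figure D3:**
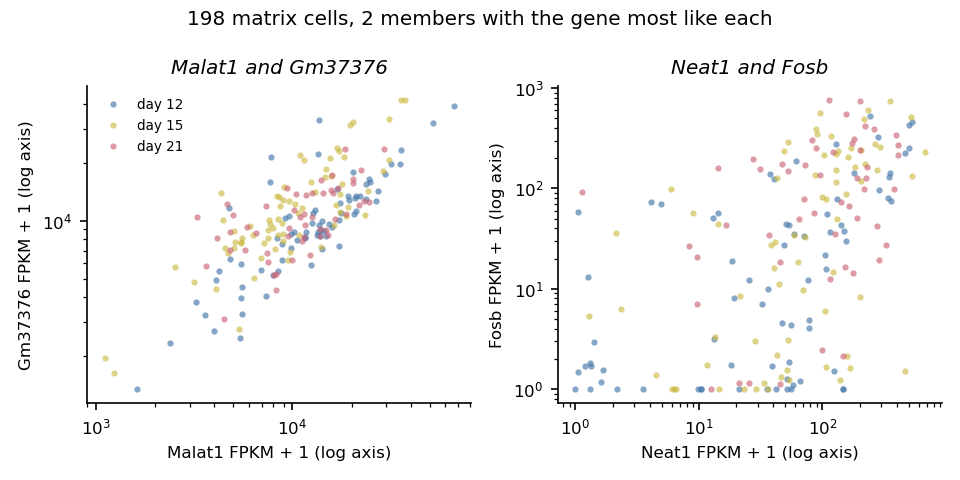
Levels in the 198 matrix cells of Malat1 and of Neat1 against the gene most like each, as FPKM + 1 on log axes; each point is a cell, coloured by post-wounding day. Malat1 and Gm37376 rise together in a narrow band (correlation 0.849), and Neat1 and Fosb in a broad cloud (0.464) with many cells without Fosb.

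Mural cells are the contractile cells of vessel walls, and their comparison with matrix cells of the same capture asked whether the RNAs differ between the main sorted cell kinds. It used the 5 captures with at least 3 cells of both kinds, with the capture as a block. Malat1 had mean levels of 15755, 15018 and 17512 FPKM in mural cells of the day 12 captures, 13270 FPKM in day 15 capture 1 and 28847 FPKM in day 21 capture 1. Mural cells were above the matrix cells of their capture in 4 of 5 captures. The last value rested on 1 cell at 98971 FPKM among 8, and was 18829 FPKM without it. The fitted difference was 0.34 ± 0.14, and 0.15 without that capture.

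Snhg1 had mean levels of 112, 85.3 and 62.03 FPKM in mural cells at day 12, 86.3 FPKM in day 15 capture 1 and 349 FPKM in day 21 capture 1, which was 69.8 FPKM without 1 cell at 2300 FPKM. Single cells carried other means too: without its highest cell, day 15 capture 1 was at 25.1 FPKM and day 12 capture 1 at 61.4 FPKM. With all cells, Snhg1 was above matrix cells in 4 of 5 captures, with a fitted difference of 1.23 ± 0.50. Without day 21 capture 1 the difference was 0.76. Neat1 was below matrix cells in 4 of 5 captures (-0.49 ± 0.41), with 13.8 against 35.6 FPKM in day 12 capture 1 and 47.05 against 114 FPKM in day 15 capture 1. Gas5, Snhg3 and Snhg12 differed by 0.30 ± 0.20, 0.59 ± 0.63 and 0.42 ± 0.63. Snhg12 was also above matrix cells in 4 of 5 captures, and Gas5 and Snhg3 were in 3 of 5. In mural cells without the highest cell, Snhg12 was at 9.55 FPKM in day 12 capture 2, against 19.7 FPKM in matrix cells. It was likewise at 4.61 against 5.53 FPKM in day 15 capture 1 and at 12.3 against 21.3 FPKM in day 21 capture 1. In day 12 capture 3 it stayed above, at 30.4 against 11.2 FPKM. The matrix means include all cells.

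No member was called between mural and matrix cells by limma, 0 of 6, where 1.71% of the 13823 genes tested were called. Malat1 and Snhg1 had unadjusted p-values of 0.0327 and 0.0323 in limma and adjusted p-values of 0.290 and 0.288, as 2 of 1976 genes with an unadjusted p under 0.05. None of the 6 went the same way in all 5 captures, which 13.2% of all genes did. The median gene differed by -0.22 in mural cells on this scale. The intervals were 0.03 to 0.64 for Malat1, 0.13 to 2.34 for Snhg1 and -1.41 to 0.42 for Neat1.

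Myeloid cells were compared in the 4 captures with at least 3 of them. Malat1 had mean levels of 21362 FPKM in myeloid cells of day 12 capture 2, 18367 FPKM in day 15 capture 2, and 12471 and 8434 FPKM in the day 21 captures. It was above matrix cells in the first 2 and below them in the day 21 captures. Gas5 had mean levels of 117, 693, 593 and 1237 FPKM in the same order, so that it was below matrix cells in day 12 capture 2 (620 FPKM there, 11 myeloid cells) and above them in the other 3 captures. In day 15 capture 2 the mean rested on 1 of 4 myeloid cells, at 2320 FPKM, and was 151 FPKM without it. In day 21 capture 1 the mean was 349 FPKM without its highest cell, against 382 FPKM in matrix cells. In day 21 capture 2 it stayed above without its highest cell, at 707 against 584 FPKM. Without day 12 capture 2 the fitted difference of Gas5 turned from -0.14 to 0.62. Neat1 was close to matrix cells in 3 captures and lower in day 15 capture 2, with 45.9 against 130 FPKM over 4 myeloid cells.

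Snhg3 was below matrix cells in 4 of 4 captures, as the one member that went the same way in all of them, which 31.7% of all genes did in this comparison. It was above 0 in 4 of 11 myeloid cells of day 12 capture 2, 0 of 4 in day 15 capture 2, 0 of 5 in day 21 capture 1 and 1 of 3 in day 21 capture 2. A count of 0 of 4 allows a share of up to 60.2% (exact 95% interval). Its fitted difference was -2.34 ± 1.09 on the log2(mean FPKM + 1) scale, of which the captures at 0 set a large part. Without its highest cell, the matrix mean fell from 16.8 to 6.69 FPKM in day 15 capture 2. It fell from 15.1 to 5.26 FPKM in day 21 capture 1 and from 15.0 to 7.59 FPKM in day 21 capture 2. The last lies below the 11.1 FPKM of myeloid cells there, which came from 1 of 3 cells. In day 12 capture 2 the matrix mean stayed above, at 55.3 against 37.3 FPKM. Snhg1 was at 0 in all 4 myeloid cells of day 15 capture 2 and had a mean of 210 FPKM in day 21 capture 2, which was 2.37 FPKM without 1 of its 3 cells, and Snhg12 differed by 0.21 ± 1.02.

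By limma 0 of 6 members were called between myeloid and matrix cells, where 6.59% of the 13059 genes tested were called and 3589 had an unadjusted p under 0.05. The lowest adjusted p of a member was 0.191, for Snhg3, with an unadjusted p = 0.0544 in limma. The median gene differed by -0.998 in myeloid cells on this scale, and Malat1, at 0.05 with an interval of -0.21 to 0.31, stood above this median. That median depended on the scale, at -1.85 with a pseudocount of 0.1, -0.27 with one of 10 and -0.24 for averaged log2 values, while Malat1 was at 0.05, 0.05 and -0.014. Scaling all cells to the same total turned the direction of Malat1 to -0.31, with the median gene at -1.20.

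**Figure D4:**
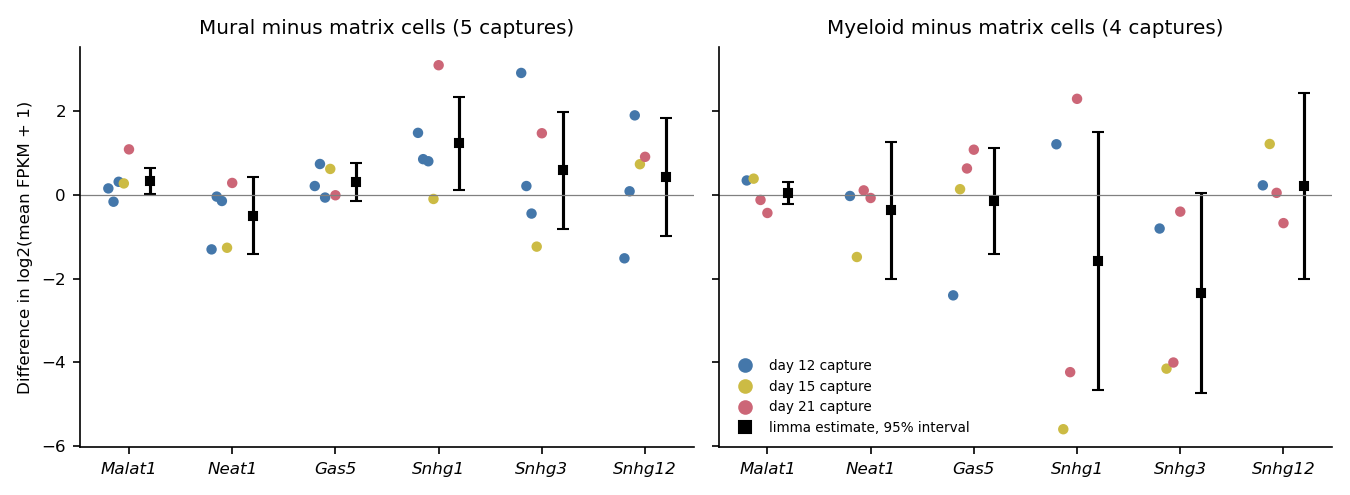
Difference of mural and of myeloid cells from matrix cells of the same capture, in log2(mean FPKM + 1); coloured points are single captures by day, black squares the limma estimates with 95% intervals. With all cells included, Malat1, Snhg1 and Snhg12 lie above 0 in 4 of 5 captures in mural cells. In myeloid cells the captures of Gas5 and Snhg1 fall on both sides of 0.

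Other genes of the same kinds were taken from lists chosen by function. Among 11 other snoRNA host genes tested, 0 were called in any of the 5 comparisons by limma (10 tested in myeloid cells). Of all genes, at most 0.00738% were called between days, 1.71% in mural and 6.59% in myeloid cells, so few calls would be due in lists this short. The most abundant, Snhg5, Snhg18 and Snhg8, had means of 128, 82.3 and 80.3 FPKM over kept cells, above those of Snhg1, Snhg3 and Snhg12 in matrix cells. Snhg18 differed most of these between myeloid and matrix cells, by -3.61 ± 1.12 (limma adjusted p = 0.0723). The host list had a median difference of -1.58 in that comparison, beside -0.998 for all genes. The matrix fibroblast markers in myeloid cells, given above, differed widely between captures, and their part in these differences was not tested.

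Of the other nuclear or abundant lncRNAs, Rian, Meg3 and Tug1 were the highest, at 382, 347 and 94.7 FPKM over kept cells. Rian and Meg3 are expressed from the imprinted Dlk1-Dio3 region. In myeloid cells Rian was lower than in matrix cells by -4.69 ± 1.04 (limma adjusted p = 0.0301), the 1 call of 8 tested, where 6.59% of all genes were called, and Meg3 differed by -3.77 ± 1.06 (adjusted p = 0.0551). The list had a median of -2.08 there. Without the filter on low values limma called 0 genes lower in myeloid cells, so Rian was not called in that setting. Between days 0 of 11 were called, where at most 0.00738% of all genes were, with Meg3 at 1.31 ± 0.40 for day 15 minus day 12 (limma adjusted p = 0.685).

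Proteins that work with these RNAs showed no call in any of the 5 comparisons by limma: 0 of 10 paraspeckle proteins, 0 of 14 nuclear speckle and splicing proteins, 0 of 11 proteins of snoRNA particles and 0 of 14 nonsense-mediated decay factors (13 tested between kinds). The share of all genes called was at most 0.00738% between days, 1.71% in mural and 6.59% in myeloid cells. The most abundant were Hnrnpk, Tardbp and Nono at 325, 105 and 70.6 FPKM over kept cells, Srsf2, Clk1 and Srsf3 at 702, 549 and 369 FPKM, Npm1, Snu13 and Ncl at 505, 116 and 104 FPKM, and Eif4a3, Magoh and Rbm8a at 153, 77.98 and 57.03 FPKM. In myeloid against matrix cells the splicing proteins had a median difference of 0.09 while the median gene was at -0.998, and the paraspeckle proteins had one of -1.23. The 6 cell cycle genes, of which Cdk1, Birc5 and Ccnb1 were highest, had a median of 1.06 for day 15 minus day 12 and of -1.90 for day 21 minus day 15, with 0 of 6 called, where 0% of all genes were called. The summed cell cycle genes had a correlation with the members of -0.170 (Malat1) to 0.0881 (Snhg3) across matrix cells.

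In the cells set aside for a mitochondrial share over 15%, 51 in number and from 6 captures, the members differed in their level beside kept cells. Malat1 was above 0 in all 51, with a median of 8665 FPKM beside 12534 FPKM in kept cells, and its median was lower than that of kept cells in 3 of 6 captures. Neat1 had a median of 4.04 FPKM beside 64.2 FPKM, lower in 6 of 6 captures. Gas5 had a median of 17.3 FPKM beside 457 FPKM, also lower in 6 of 6, and was above 0 in 58.8% of these cells beside 97.3% of kept cells. Snhg1, Snhg3 and Snhg12 were above 0 in 19.6%, 11.8% and 11.8% of them, beside 52.4%, 35.3% and 26.4%. Of the 51 cells, 47 met the minimum of fragments, with a median depth of 539000, and Gas5 was above 0 in 61.7% of those. This depth is below the 943000 fragments of the shallowest capture of kept cells. The cells left out were not split by kind, and a high mitochondrial share lowers the FPKM of other genes in a cell. The parts of depth, cell kind and mitochondrial share in the values of the cells left out were not tested.

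**Figure D5:**
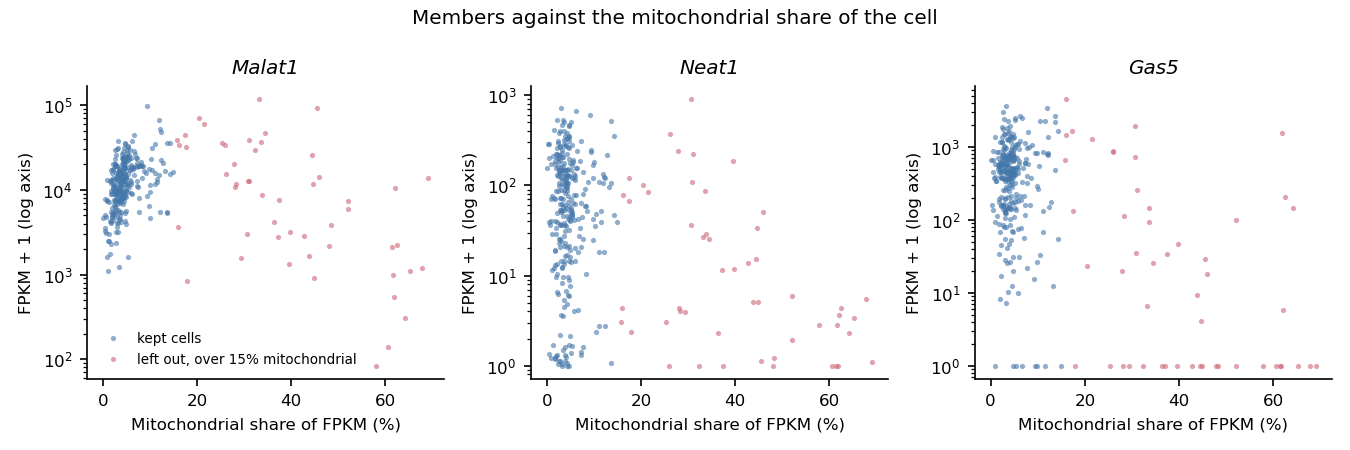
Levels of Malat1, Neat1 and Gas5, as FPKM + 1 on a log axis, against the mitochondrial share of FPKM of each cell in percent; blue points are kept cells and red points the 51 cells left out for a share over 15%. Malat1 is above 0 in all cells shown, while Gas5 is at 0 in many of the cells left out.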

How the data were processed

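Single tdTomato-high wound cells were captured on a microfluidic device, full-length cDNA was made without spike-in RNA, and paired-end libraries that do not keep strand were sequenced. The FPKM values per gene and cell were made by the authors with RSEM, and the submitters' processing notes also name Bowtie 1.0.0 and mm10. The values were used as deposited, in 7 tables with 367 cell columns. Gene identifiers were matched to GENCODE release M21 (50376 of 50600 had a record), which also gave the sequences. FPKM hold no read counts, so fragments per cell were estimated from the steps between low values of 9420 genes with a single transcript, with an assumed fragment length of 300 bases.

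Cells with under 159000 fragments (27 cells), over 11000 genes (1) or over 15% mitochondrial FPKM (51) were left out, 75 in all. Each capture gave 1 mean per gene and cell kind, with at least 3 cells of both kinds for comparisons between kinds. limma 3.58.1 (R 4.3.3) with a variance trend was fitted on log2(mean FPKM + 1) over genes with a mean of 1 FPKM or more, at a Benjamini-Hochberg adjusted p of 0.05. A fold change on this scale understates that of low genes. Shares of cells were compared by an exact permutation test over captures and adjusted over all genes, in place of the 6 members as planned. Correlations were Pearson's, on log2(FPKM + 1) centred within captures. The scripts were tested on simulated data, where limma called few of the small changes and, for myeloid cells, few of the large ones. A count of 0 called therefore does not show that nothing changed. Named beside the members were the 3 genes of each list with the highest mean over kept cells, and genes among the 5 most like a member, some of which are not reported here. The members, lists and limits were chosen with earlier results of these data known. The alternatives tried covered the pseudocount, the filter on low values, the scaling, the averaging, the cell filter, the limits of the kinds, the variance trend, the block and leaving out each capture.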

Additional observations from a re-analysis of the deposited data

Results flagged for a closer look

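Of 12 sets of per-capture differences of cell kinds from matrix cells, all examined for a value far from the others, 1 was found. Chance gives about 1 in 20 for each set, so 1 find over 12 sets is not unusual. Neat1 in myeloid minus matrix cells was at -1.48 (log2) in day 15 capture 2, over 4 myeloid cells, while the other 3 captures lay between -0.07 and 0.11. Without that capture the fitted difference of Neat1 was 0.0041, against -0.37 with it. Of the others, day 21 capture 2 had 3 myeloid cells with a mean of 129 FPKM, which was 36.5 FPKM without its highest cell.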

How the results depend on the processing

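In all 90 recomputed counts, 0 of the 6 members were called. The lowest limma adjusted p of a member in any setting was 0.115. Some of these counts are from the exact permutation test on shares of cells. Its smallest p is 0.00952 with all captures, before adjustment over 13552 genes, and 0.0667 without a capture of day 12. A call was thus hardly possible in that test, and impossible without a capture of day 12, so its counts of 0 show little. Of 480 recomputed member differences 442 kept their direction and 38 turned, none of them from a called value. All are log2 differences. Averaging log2 values over cells turned Gas5 (-0.55), Snhg1 (-0.14) and Snhg3 (-0.99) for day 15 minus day 12, Snhg1 (-0.65) and Snhg12 (-0.17) for day 21 minus day 12, Gas5 for day 21 minus day 15 (0.052) and Malat1 in myeloid cells (-0.014). Keeping all deposited cells turned Snhg12 (0.59, day 15 minus day 12; -0.28, mural; -0.20, myeloid), Malat1 (-0.16, day 21 minus day 15) and Gas5 (0.17, myeloid). Taking all kept cells turned Snhg3 (-0.55, day 15 minus day 12) and Snhg1 (0.46, day 21 minus day 15). Doubled limits of the kinds turned Snhg1 (-0.028, day 21 minus day 12) and Malat1 (-0.0017, day 21 minus day 15). Captures with at least 1 cell of both kinds turned Snhg3 (-0.20) and Snhg12 (-0.21) in mural cells and Malat1 (-0.47) and Snhg12 (-0.47) in myeloid cells. Equal totals turned Malat1 (-0.31) and Snhg12 (-0.077) in myeloid cells. The causes were not tested.

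Leaving out 1 capture at a time moved the differences that turned over these ranges. For day 15 minus day 12 they were -0.022 to 1.16 for Neat1, -0.78 to 1.25 for Snhg3 and -0.034 to 0.081 for Gas5. Snhg1 ran from -0.071 to 0.13 for day 21 minus day 12, and Malat1 from -0.18 to 0.18 for day 21 minus day 15. In myeloid cells Malat1 ran from -0.068 to 0.21, Gas5 from -0.54 to 0.62, Neat1 from -0.53 to 0.0041 and Snhg12 from -0.13 to 0.50.

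Deviations of captures with the same number had correlations of -0.00685 to 0.025 over genes. These cannot show whether captures were paired, since the 2 captures of day 15 or of day 21 deviate by equal amounts in opposite directions. The numbers were used as names of captures and not as pairs. With the replicate block 0 members and 0 genes were called between days, and Gas5 (-0.034, day 15 minus day 12) and Snhg1 (-0.071, day 21 minus day 12) turned. Without the block 0 members were called between kinds. Over all settings the genes called ranged from 0 to 28, 0 to 70 and 0 to 1 in the 3 comparisons of days, most with averaged log2 values in the first 2, from 19 to 657 for mural cells and from 31 to 2952 for myeloid cells, fewest without the filter on low values in both.

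Values under the level of 3 fragments were listed and counted as above 0, down to 0.04 FPKM for Neat1. The unstranded reads do not separate Malat1 from its antisense gene.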
